A study of Rattus norvegicus with 84 samples.

Results

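The 40 genes described here encode proteins that dock, fuse and retrieve the vesicles of nerve terminals. They were listed by name and role, with no measured value of these samples in the rule, though earlier results were then known. Each was looked up by its symbol in the table of read counts. All 40 were found among the 41919 genes of the table, and all 40 passed the filter on low counts in every comparison. They fall into 5 roles: 11 genes of the vesicle membrane and synapsins, 8 of the active zone and priming, 8 of the fusion machinery with its partners and its disassembly, 9 synaptotagmins and 4 of endocytosis. The smallest count of any member in any library was 62, for Syngr3 in the Core Ctx_Coc library 17-F. Counts include background, which for some members made up most of them.

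Synaptic vesicles are loaded with transmitter and tethered at the active zone, a protein scaffold in which RIM proteins, Bassoon and Piccolo hold vesicles close to calcium channels. Munc13 proteins then prime them by helping the SNARE proteins syntaxin, SNAP-25 and synaptobrevin to zip together, complexins clamp the partly assembled complex, and calcium binding to synaptotagmin triggers fusion. NSF with its SNAP adaptors takes the spent SNARE complexes apart, while dynamin and amphiphysins pinch membrane back off the plasma membrane. In the nucleus accumbens, a ventral striatal region that takes part in reward and drug seeking, most neurons are GABAergic projection neurons. Their own RNA, that of local interneurons and that of glia is what a tissue sample holds, whereas the RNA of incoming axons from cortex, thalamus and midbrain stays largely in those regions.

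RNA was sequenced from Core and Shell, the subregions of the nucleus accumbens, of Long-Evans rats that the labels call wild-type. Animals received cocaine (Coc) or saline (Sal) and were sampled in 1 of 3 conditions named Ext, HC and Ctx. Of these the study's text explains Ext, as extinction, and the labels do not spell out HC and Ctx. The resulting 12 groups (Core or Shell, with Ext_Coc, Ext_Sal, HC_Coc, HC_Sal, Ctx_Coc or Ctx_Sal) hold 7 libraries each, 84 in all. Dose, age, length of abstinence and animals per library were not found in the labels or the study's text. All animals share the strain and the genotype. Whether each library is a different animal is not said in the labels, and p-values therefore describe the spread between libraries, which may be technical. Markers of striatal projection neurons had counts above 0 in every library, background included. Among them, Drd1 had 118 to 2093 counts per library, Drd2 1027 to 3872 and Adora2a 298 to 1694. The summed level of 9 such markers ran from 1151 to 4991 CPM (a unit explained below) in Core without 17-F. In Shell it ran from 965 to 4442 CPM. In 17-F it was 304 CPM, and counts above 0 do not show that the markers were transcribed there.

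Depth was similar, from 13628600 to 22494800 counts per library on genes. Receptor genes of the olfactory and vomeronasal epithelium, which brain tissue hardly transcribes, were counted to estimate a background of reads that fall on genes without being their transcripts. Extended to the length of every gene, this background made up an estimated 22.2% of a Core library (median, range 1.58% to 96.1%, n = 42) and 21.9% of a Shell library (2.13% to 52.4%, n = 42). The Core Ctx_Coc library 17-F held the highest value, 96.1%, and is left out in a second value beside the Core results that moved with it. The numbered series split by subregion (1 and 2 in Core, 3 and 4 in Shell), and only the F series holds both.

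The members differ widely in length, and that bears on how much of their signal this background could make up. The counts and FPKM values together imply 1 length per gene. For 31 of the 40 members this length lay within 1% of the whole gene span in RefSeq, introns included. Implied lengths ran from 4113 bases for Rab3a to 1592740 bases for Syn3, whose RefSeq span is 457540 bases. Whether reads of intronic and overlapping genes, such as Timp3 inside a Syn3 intron, count toward a member depends on the counting settings. These are the use of the strand and the handling of reads that overlap 2 genes, and no label states either. The estimated background share of a member's counts (median of 83 libraries, without 17-F) ranged from 0.351% for Vamp2 to 62.0% for Unc13b. It was under 10% for 20 of the 40 members and over 50% for 2, Unc13b and Syn3 (60.6%).

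Of the 5 members whose level differed between Shell and Core, RefSeq promoter sequences on the rat build GRCr8 are shown for 3, Rims3, Unc13a and Dnm3, as examples of the start regions of called genes in both directions. In all, 30 of the 40 members were matched. Rims3 encodes a short RIM protein of the active zone, Unc13a the main Munc13 priming factor and Dnm3 a dynamin. Each line gives the 250 bases before the annotated start, 5′ to 3′ on the gene's strand, at chr5:139714070-139714319 (plus strand), chr16:18415787-18416036 (minus strand) and chr13:77371347-77371596 (minus strand). Capitals mark GC boxes (GGGCGG, read on both strands) and cAMP response element half-sites (TGACG, on both strands).
Rims3: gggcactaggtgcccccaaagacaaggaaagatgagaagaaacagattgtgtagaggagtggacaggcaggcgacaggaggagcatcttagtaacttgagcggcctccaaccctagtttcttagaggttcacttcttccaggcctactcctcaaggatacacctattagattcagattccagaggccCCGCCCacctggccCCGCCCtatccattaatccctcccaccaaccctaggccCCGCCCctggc
Unc13a: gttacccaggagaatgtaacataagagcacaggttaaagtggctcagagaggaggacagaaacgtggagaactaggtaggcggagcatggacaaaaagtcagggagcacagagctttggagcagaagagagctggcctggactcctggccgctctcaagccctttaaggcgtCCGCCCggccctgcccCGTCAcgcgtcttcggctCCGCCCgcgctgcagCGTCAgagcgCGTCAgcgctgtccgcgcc
Dnm3: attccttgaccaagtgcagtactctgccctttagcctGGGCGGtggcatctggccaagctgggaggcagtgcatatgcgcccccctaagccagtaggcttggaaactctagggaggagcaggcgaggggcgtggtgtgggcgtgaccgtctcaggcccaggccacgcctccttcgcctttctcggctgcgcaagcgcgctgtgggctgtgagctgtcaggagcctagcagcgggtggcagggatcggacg
The Rims3 window held 3 GC boxes and 5 CpG dinucleotides, that of Unc13a 2 GC boxes, 3 half-sites and 19 CpG, and that of Dnm3 1 GC box and 15 CpG. None of these 3 windows held a full cAMP response element (TGACGTCA), an Egr site (GCGTGGGCG) or a TATA box (TATAAA). Over the 30 members with a promoter, 21 windows held a GC box, against 30.5% of 33469 rat promoters of the same length. A half-site stood in 8 members (Cplx1, Dnm1, Rab3a, Syn1, Syt4, Unc13a, Vamp1 and Vamp2), against 18.2% of all promoters. The full element, which contains the half-site, stood in 2 of these, Syn1 and Vamp1, against 1.59%, and an Egr site in Vamp2 alone, against 0.478%. A TATA box stood in 0 of the 30, against 12.9%. The members' windows had a median of 16 CpG dinucleotides (range 2 to 33) and 64.6% G or C, where all promoters had 5 and 51.2%. These are matches of letters only, listed with no test, and a window without a match says nothing about the factor.

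Levels were compared between genes as counts-per-million (CPM) values per kilobase of implied gene length, which includes introns and so understates genes with long introns. Vamp2, the vesicle SNARE synaptobrevin-2, stood highest, with a median of 48.9 CPM per kb over the 84 libraries. The small GTPase Rab3a (23.1), the vesicle membrane protein synaptophysin, Syp (12.9), the neuronal dynamin Dnm1 (6.95) and the synaptogyrin Syngr3 (6.21) followed. At the other end stood the priming factor Unc13b (0.272), the synapsin Syn3 (0.280) and the calcium sensor Syt2 (0.417). The place of Syn3 rests on its implied length, 3.48 times its RefSeq span, which its estimated background share of 60.6% uses too. In CPM without division by length, Syn3 had a median of 446, against 111 for Syn1 and 214 for Syn2. Vamp2 was above Rab3a, Rab3a above Syp and Syp above Dnm1 in 83 of 83 libraries (without 17-F), while Syngr3 stood above Syt11 (6.13) in 29 of 83, so the order of these neighbours changed from library to library. Ranges over libraries overlapped for 39 of 39 neighbours in the order.

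**Figure D1:**
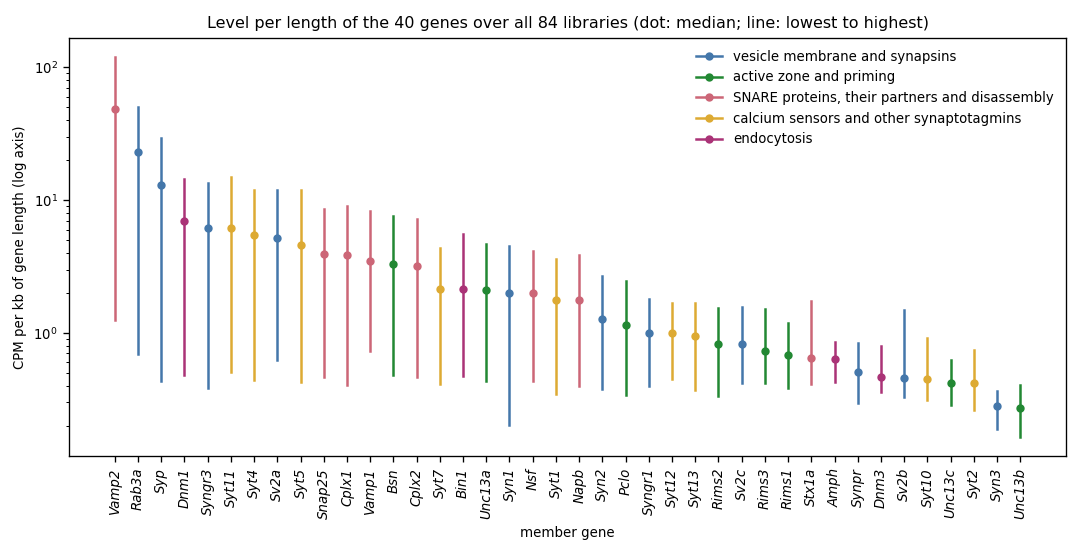
Level of each of the 40 genes in CPM per kb of gene length (log axis), ordered by median; dots are medians and lines run from the lowest to the highest of 84 libraries, coloured by role. Vamp2 stands at 48.9 and Unc13b at 0.272, and the lines of the higher genes reach far down, with the lowest value of 32 of the 40 genes in 1 library, Core Ctx_Coc 17-F.

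Members of the same role stood far apart on this scale. In the fusion machinery Vamp2 exceeded Vamp1 (3.50), and Stx1a, the plasma membrane SNARE syntaxin-1A, was lowest at 0.644. In the active zone the scaffold Bassoon, Bsn, was highest at 3.30 and Piccolo, Pclo, stood at 1.15. The Munc13 genes ranked Unc13a (2.09), Unc13c (0.422) and Unc13b (0.272), while the RIM genes lay close together, at 0.827 for Rims2, 0.730 for Rims3 and 0.679 for Rims1. Among the vesicle glycoproteins of the SV2 family, Sv2a (5.19) stood above Sv2c (0.827) and Sv2b (0.460). Of the synapsins, which tether vesicles to each other, Syn1 had 2.01 and Syn2 1.27. The synaptotagmins were led on this scale by Syt11 (6.13), a member that does not bind calcium, Syt4 (5.51) and Syt5 (4.58). Syt1, the fast calcium sensor of forebrain neurons, had 1.78 over its 544817 bases. In CPM without division by length, Syt1 stood highest of the 9, with a median of 970 against 162 for Syt11. Syt4 had 51.8 and Syt5 35.3, and Sv2c (162) then stood above Sv2a (82.2). Among the endocytosis genes Dnm1 exceeded Bin1 (2.13), which encodes amphiphysin-2, Amph (0.634), which encodes amphiphysin-1, and Dnm3 (0.469). The genes at the low end were mostly long, and their estimated background shares were large, at 40.1% for Syt2 and 41.6% for Unc13c beside the values of Syn3 and Unc13b given above.

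Libraries of the same subregion varied more in Core than in Shell. Without 17-F, the SD of log2 CPM over Core libraries ran from 0.20 (Syn3) to 0.71 (Vamp2), and over Shell libraries from 0.11 to 0.50, with a larger SD in Core for 37 of 40 members. The background level varied more in Core too, with an SD of 1.52 log2 CPM (without 17-F) against 0.74 in Shell. Its part in the members' spread was not tested. The summed level of all 40 genes ran from 4831 to 12532 CPM in the other 41 Core libraries and from 4669 to 12463 in the 42 Shell libraries. Shorter members varied more: across the 40 genes, Spearman's rho between length and SD was -0.55 in Core and -0.62 in Shell, a description over genes that share libraries and depth. In 17-F the 40 genes summed to 2655 CPM. After scaling, 37 of 40 members lay below the median of the other 6 libraries of the group in 17-F, and 32 had their lowest value of all 84 libraries there. The 25 members of up to 100000 bases were all lower, with a median log2 difference of -2.69, and Vamp2 was lower by 4.93 on the log2 scale (2.44 against 7.37). The 15 longer ones had a median of -0.42, and Syn3 (0.37), Unc13b (0.47) and Amph (0.36) were higher. Scaling matters for the longer members: 17-F had a scaling factor of 2.21 against 0.588 to 1.51 in the others, and in unscaled CPM 10 of the 15 longer and 3 of the 25 shorter members were higher there.

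**Figure D2:**
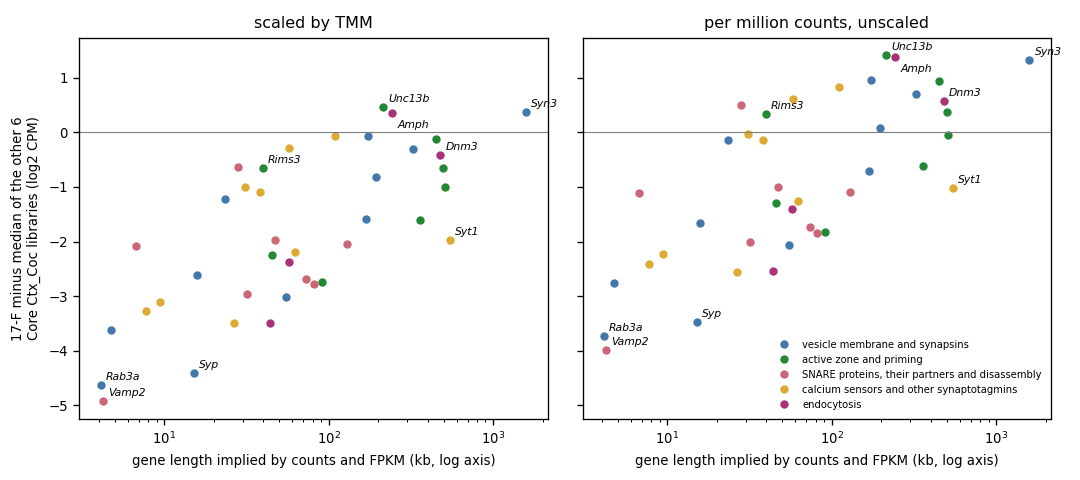
Difference of the Core Ctx_Coc library 17-F from the median of the other 6 libraries of its group (log2 CPM) against gene length (log axis) for the 40 genes, after scaling on the left and in CPM without scaling on the right. Vamp2, Rab3a and Syp lie lowest in both panels, Unc13b, Syn3 and Amph lie above 0 in both, and 2 of the longest, Rims2 (-1.0) and Syt1 (-1.98), lie below 0 after scaling (Spearman's rho 0.68 after scaling, over 40 genes).

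Shell and Core were compared over all 84 libraries, to ask whether the subregions differ in their release machinery. With edgeR's quasi-likelihood test and adjustment over all genes, 1 member was higher in Shell (Rims3) and 4 were lower (Bin1, Syt10, Dnm3 and Unc13a). Over all 32145 genes tested, 4.56% were called higher and 8.77% lower, 13.3% together, and the members' 12.5% is near that background. The median log2 fold change of the members was -0.01 (19 of 40 positive), against 0.05 over all genes. Within the 30 numbered pairs, the median difference was above 0 for 32 of the 40 members. The members share these libraries, and no such count over all genes was made, so 32 of 40 is no result about the members in particular. In tissue samples like these, fewer cells of a type and less RNA per cell cannot be told apart.

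Rims3 was the member higher in Shell. Its level was 4.34, 5.03 and 5.91 log2 CPM (lowest, median and highest) in Shell and 4.06, 4.70 and 5.18 in Core (n = 42 each). The difference was 0.34 ± 0.06 (SE) on the log2 scale, 1.27-fold (edgeR, adjusted p = 1.22e-06), and 40 of 42 Shell libraries lay above the Core mean. Of the 30 pairs of same-numbered Core and Shell libraries, 25 were higher in Shell. The 2 ranges overlap, and the medians of all 6 Shell groups (4.89 to 5.18) lay above those of 5 of the 6 Core groups (4.61 to 4.76), with Core Ctx_Sal at 5.03. Its estimate was positive in 15 of 15 fits of the comparison, with other libraries or terms, and passed in 13. These fits share libraries. The fits in which Rims3 did not pass were those of the F series alone, the only series that holds both subregions. In the numbered series subregion and series cannot be told apart. Its relatives Rims1 (0.07 ± 0.07) and Rims2 (0.06 ± 0.08), which carry the domains that the short form lacks, did not pass (adjusted p = 0.503 and 0.628).

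Bin1, a curvature-sensing protein found in neurons and in oligodendrocytes, was lower in Shell by the widest margin. It had 5.82, 6.81 and 7.71 log2 CPM in Shell and 4.76, 7.27 and 8.32 in Core (6.56 to 8.32 without 17-F). The log2 fold change was -0.70 ± 0.11 (edgeR, adjusted p = 4.91e-07), a 1.62-fold lower level, with 40 of 42 Shell libraries below the Core mean and 27 of 30 pairs lower in Shell. The ranges overlap, and the highest Core libraries, above 8, had no counterpart in Shell. Amph, its paralog, had 0.08 ± 0.05 (adjusted p = 0.260).

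Syt10, a calcium sensor known from the release of peptide-filled vesicles, stood at 4.20, 4.63 and 5.27 log2 CPM in Shell and 4.18, 4.89 and 5.74 in Core. The log2 fold change was -0.40 ± 0.06, a 1.32-fold lower level in Shell (edgeR, adjusted p = 1.82e-06), with 40 of 42 Shell libraries under the Core mean and 24 of 30 pairs lower. Its range in Shell was narrow and lay inside that of Core. Within the F series alone, without 17-F, Syt10 was the 1 member that passed (-0.64 ± 0.14, adjusted p = 0.0340), among 714 genes in all.

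Dnm3 and Unc13a were lower in Shell by less. Dnm3 had 7.55, 7.80 and 8.35 log2 CPM in Shell and 7.43, 7.82 and 8.58 in Core, with a log2 fold change of -0.18 ± 0.05 (edgeR, adjusted p = 0.00967) and 19 of 30 pairs lower. Unc13a had 5.48, 6.55 and 7.44 in Shell and 4.31, 6.64 and 7.73 in Core, with -0.35 ± 0.11 (edgeR, adjusted p = 0.0178) and 18 of 30 pairs lower. For both genes the medians of the subregions were close, and the difference lay in the upper Core libraries. The other Munc13 genes pointed the other way without passing, Unc13b with 0.15 ± 0.05 (edgeR, adjusted p = 0.0507) and Unc13c with 0.07 ± 0.04 (adjusted p = 0.277). Next in order of p came Syn3 (0.11 ± 0.04, adjusted p = 0.0567) and the complexin Cplx2 (-0.29 ± 0.11, adjusted p = 0.0757), neither of which passed, while the other complexin, Cplx1, had -0.02 ± 0.13.

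**Figure D3:**
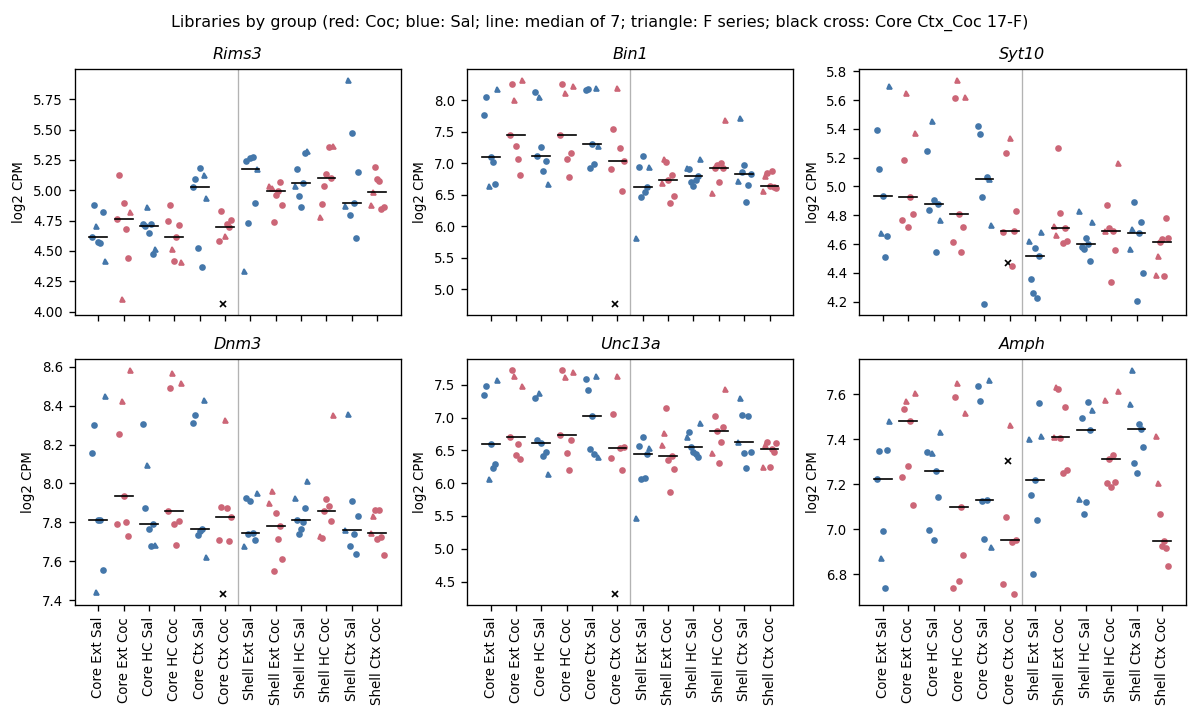
Level in log2 CPM of Rims3, Bin1, Syt10, Dnm3, Unc13a and Amph in each of the 84 libraries by group (circles and triangles, the F series as triangles; lines are medians of 7; Core left of the grey line). Shell libraries of Rims3 lie mostly above those of Core, Bin1, Syt10 and Unc13a reach higher in Core, and Amph is low in Shell Ctx_Coc, with a median of 6.95 log2 CPM against 7.44 in Shell Ctx_Sal.

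By role, the fusion machinery had a median of -0.02 in Shell against Core (range -0.29 to 0.03, 0 of 8 called). The vesicle membrane and synapsin genes had a median of 0.04 (-0.17 to 0.30, 0 of 11 called), with Syp highest at 0.30 ± 0.14 (edgeR, adjusted p = 0.142). The active zone genes had 0.06 (-0.35 to 0.34), the synaptotagmins -0.12 (-0.40 to 0.08) and the endocytosis genes -0.07 (-0.70 to 0.08). Of 59 other genes of the vesicle cycle, 10 were higher and 11 lower in Shell, beside the 4.56% and 8.77% of all genes. The higher ones included the synaptotagmin Syt9 (0.44 ± 0.04) and the vesicular glutamate transporters Slc17a8 (0.55 ± 0.08), which striatal cholinergic interneurons use, and Slc17a6 (0.54 ± 0.13). The vesicular acetylcholine transporter Slc18a3 (0.60 ± 0.11) was higher at a low level, an average of 0.46 log2 CPM. The others were Cadps (0.25 ± 0.05), a dense-core vesicle factor, Cadps2 (0.52 ± 0.11), Rab3b (0.31 ± 0.05), Lin7a (0.30 ± 0.03), Sh3gl2 (0.20 ± 0.05) and Rimbp2 (0.13 ± 0.03). Among the lower ones were Syngr2 (-0.64 ± 0.09) and the endocytic genes Dnm2 (-0.41 ± 0.07), Eps15 (-0.43 ± 0.09) and Picalm (-0.42 ± 0.11), which many cell types express. With the background term described further on, Dnm2 was at -0.19 ± 0.03 and Eps15 at -0.11 ± 0.04, both still called, while Picalm (-0.04 ± 0.04, edgeR, adjusted p = 0.492) was not. In that fit 42 of the 59 genes were higher and 6 lower, beside 29.5% and 11.8% of all genes.

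Which members passed moved with the libraries and the terms in the fit. Without 17-F, 3 members were higher (Rims3, Unc13b and Syn3) and 9 lower, where 12.6% of all genes were called higher and 13.7% lower. The added ones were Bsn (-0.30 ± 0.11), Cplx2 (-0.32 ± 0.10), Syt5 (-0.33 ± 0.11), Syt7 (-0.25 ± 0.09), Syt11 (-0.31 ± 0.11), Unc13b (0.17 ± 0.05) and Syn3 (0.13 ± 0.04). Of these, Syt5 and Syt11 were higher in Shell in 16 and 17 of the 30 numbered pairs. With the 30 numbered pairs as a replicate block, 3 members were higher (Rims3, Sv2a and Syp) and 5 lower (Bin1, Syt10, Dnm3, Unc13a and Syt2), beside 4.5% and 7.31% of all genes. Syp, which was higher in 23 of 30 pairs, had 0.46 ± 0.11 there (adjusted p = 0.00257), Sv2a 0.29 ± 0.09 and Syt2 -0.20 ± 0.06. With the F series alone edgeR called 0 members, with 4 at an unadjusted p under 0.05. Of all genes, 76 passed there and 2885 had an unadjusted p under 0.05, and DESeq2 was not run on that subset.

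With the receptor-gene background as a covariate, 29 members were higher in Shell and 3 lower (Bin1, Syt10 and Syt2), where 29.5% of all genes were called higher and 11.8% lower. The median of the members moved from -0.01 to 0.21, while that of all genes was 0.04. Syp then had 0.80 ± 0.08, Rab3a 0.60 ± 0.08, Sv2a 0.58 ± 0.05, Syt4 0.51 ± 0.06 and Dnm1 0.48 ± 0.06, whereas Unc13a was at 0.02 ± 0.05 and no longer passed. Rims3 (0.40 ± 0.05), Bin1 (-0.33 ± 0.05) and Syt10 (-0.24 ± 0.05) passed with the same sign with and without this term. Within the numbered series the background of Core averaged 11.5% in series 1 and 26.6% in series 2, and that of Shell 20.5% in series 3 and 25.6% in series 4.

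Oligodendrocyte markers moved with the subregion: 6 of 6 (Mbp, Mobp, Mag, Mog, Opalin and Cnp) were lower in Shell, with a median log2 fold change of -1.75. Their summed level ran from 348 to 1626 CPM in Shell (median 790.4) and from 981 to 5593 in Core without 17-F (median 2113, and 146 in 17-F), and no marker was at 0 in any library. With that level as a covariate, which was added once the data were known, the median of all genes moved from 0.05 to -0.30 and 28759 of 32145 genes passed. Against that shift Bin1 was at 0.56 ± 0.05, Dnm3 at 0.27 ± 0.04 and Unc13a at 0.80 ± 0.09, all reversed, Syt10 at -0.0011 ± 0.083, and Rims3 at 0.62 ± 0.08. Markers of cortical glutamatergic neurons were positive for 7 of 7 in Shell against Core with 0 called by edgeR or DESeq2 (median 0.34, 1 at an unadjusted p under 0.05), 4 of 5 microglia markers and 2 of 5 astrocyte markers were lower, interneuron markers gave 3 higher and 2 lower of 6, projection neuron markers 1 higher and 3 lower of 9, and vessel markers 1 lower of 4. Beyond these fits, the part of these cell types in the members' differences was not tested.

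Cocaine and saline libraries were compared in each condition of each subregion, to ask whether release genes differ after cocaine. In none of the 6 comparisons did a member pass edgeR's test (0 of 40 each). DESeq2 called 0 members too. The share of all genes called by edgeR was 0% in each, so a count of 0 is no result about the members in particular. At an unadjusted p under 0.05 the members numbered 0 in Core Ext, 0 in Core HC, 6 in Core Ctx, 3 in Shell Ext, 0 in Shell HC and 5 in Shell Ctx, beside 0.574%, 0.593%, 10.9%, 1.57%, 1.34% and 4.83% of all genes. Without 17-F the Core Ctx count was 4 members, beside 1.79% of all genes. Of the 59 other genes of the vesicle cycle, edgeR and DESeq2 called 0 in each comparison, with 0, 0, 6, 2, 0 and 14 at an unadjusted p under 0.05 in edgeR, in the same order.

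Most members of each comparison had estimates of the same sign. In the Ext condition 36 of 40 were positive in Core (median 0.20, all genes -0.07) and 36 in Shell (median 0.18, all genes -0.01). In HC 36 were positive in Core (0.16, all genes -0.10) and 35 in Shell (0.13, all genes -0.01). In Ctx 37 of 40 were negative in Core (-0.40, all genes 0.03) and 36 in Shell (-0.25, all genes 0.01). By role the SNARE genes and their partners gave 8 of 8 positive in Ext and HC and 8 of 8 negative in Ctx, in both subregions. Among the synaptotagmins 8 of 9 in Core Ext, 8 of 9 in Core HC, 9 of 9 in Shell Ext and 8 of 9 in Shell HC were positive, with Syt2 at -0.21 in Core Ext. Members share libraries and vary together, so these counts are not independent.

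**Figure D4:**
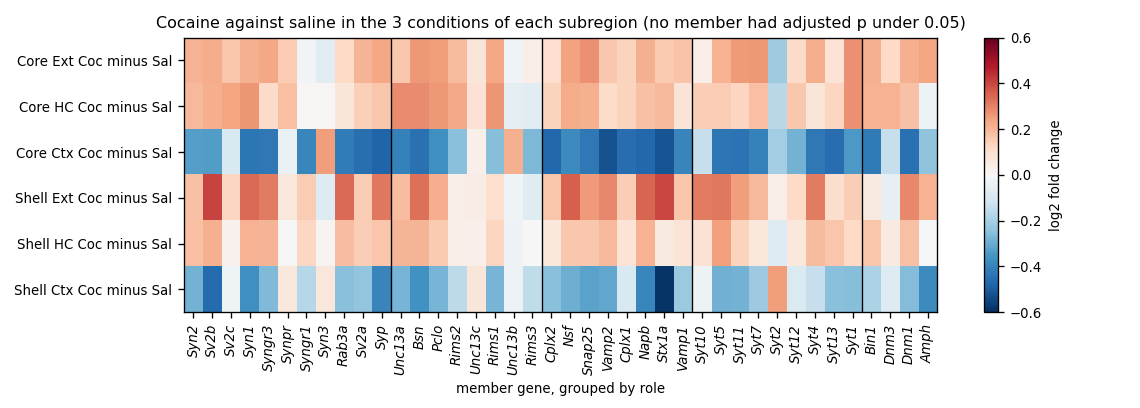
Log2 fold change of cocaine against saline libraries for the 40 genes (columns, grouped by role) in the 3 conditions of Core and Shell (rows), red for higher in cocaine and blue for lower. The Ext and HC rows are mostly red and the Ctx rows mostly blue, and no cell passed the test.

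In Shell, Amph had the smallest p of any member in any drug comparison. Its level was 6.84, 6.95 and 7.41 log2 CPM in Ctx_Coc and 7.25, 7.44 and 7.71 in Ctx_Sal (n = 7 each), a log2 fold change of -0.38 ± 0.09 (edgeR, adjusted p = 0.731). All 7 Ctx_Coc libraries lay below the Ctx_Sal mean, although the ranges overlap. Stx1a was next with -0.59 ± 0.21 (adjusted p = 0.731): it had 3.88, 4.14 and 4.16 log2 CPM in Ctx_Coc and 3.89, 4.70 and 5.33 in Ctx_Sal, a spread that lay almost wholly in the saline group. In Shell Ext, Amph pointed the other way (0.21 ± 0.09), with 7.25, 7.41 and 7.63 in Ext_Coc and 6.80, 7.22 and 7.56 in Ext_Sal. Syt10 led that comparison with 0.31 ± 0.11 (edgeR, adjusted p = 0.998), at 4.61, 4.71 and 5.27 in Ext_Coc against 4.23, 4.52 and 4.68 in Ext_Sal, 7 of 7 above the mean of the latter. In Shell HC the smallest p belonged to Syt5 (0.25 ± 0.18) and Syn2 (0.18 ± 0.14), both with an adjusted p of 0.891.

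In Core Ctx, Stx1a had the smallest p, with -0.52 ± 0.16 (edgeR, adjusted p = 0.433). It had 3.54, 4.10 and 4.55 log2 CPM in Ctx_Coc (3.85 to 4.55 without 17-F) and 3.94, 4.51 and 5.30 in Ctx_Sal, 7 of 7 below the mean of the latter. Syt13, a synaptotagmin without calcium binding, had -0.46 ± 0.17 (adjusted p = 0.433) with 6 of 7 below. In Core Ext Amph (0.23 ± 0.13) and Sv2b (0.22 ± 0.14) had the smallest p, with 7.11, 7.48 and 7.61 log2 CPM of Amph in Ext_Coc against 6.74, 7.22 and 7.48 in Ext_Sal. In Core HC they were Sv2b (0.22 ± 0.14) and Rims1 (0.27 ± 0.18). None of these passed (adjusted p = 0.923 in Core Ext and 0.820 in Core HC). Averaged over the 3 conditions, Syt2 had -0.19 ± 0.08 in Core (edgeR, adjusted p = 1.0) and Rims3 -0.10 ± 0.07. In Shell the averages of lowest p were Syt10 with 0.12 ± 0.06 and Unc13c with 0.05 ± 0.04 (adjusted p = 1.00 for both).

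The background was uneven between the groups compared. It averaged 14.7% in Core Ext_Coc against 18.6% in Ext_Sal, 16.6% against 20.3% in Core HC and 32.3% against 13.9% in Core Ctx. In Shell the means were 24.6% against 28.2% in Ext, 17.5% against 20.1% in HC and 24.7% against 21.0% in Ctx. In each the group with the higher mean background had the lower estimates for most members. By medians the order was the other way in Shell Ctx, at 23.4% in Ctx_Coc and 23.8% in Ctx_Sal. The medians of Core HC were nearly equal (22.16% in HC_Coc and 22.22% in HC_Sal). The Core Ctx_Coc mean includes 17-F at 96.1%, and the medians of Core Ctx were 27.7% in Ctx_Coc and 12.6% in Ctx_Sal. With the background as a covariate the median of the members was 0.05 in Core Ext, -0.10 in Core HC, -0.12 in Core Ctx, 0.14 in Shell Ext, -0.05 in Shell HC and -0.05 in Shell Ctx. Core HC and Shell HC thereby changed sign, with 8 and 9 of 40 positive. Without 17-F the Core Ctx median was -0.22, and -0.02 with the covariate as well.

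Markers of cortical glutamatergic neurons, which border the accumbens, had medians of the same sign as the members in these 6 comparisons. Neither edgeR nor DESeq2 called any of the 7 markers, with 3 in Core Ctx, 5 in Shell Ctx and 0 in the other 4 at an unadjusted p under 0.05 in edgeR. Astrocyte and interneuron markers also shared the members' sign in 6 of 6 comparisons, with medians between -0.45 and 0.13 for astrocytes, and oligodendrocyte and projection neuron markers in 5 of 6. The medians of the cortical markers were -1.0 in Core Ctx and -1.70 in Shell Ctx, and 0.35, 0.13, 0.76 and 0.39 in Core Ext, Core HC, Shell Ext and Shell HC. The summed level of the 7 markers ran from 71.2 to 113 CPM in Shell Ctx_Coc and from 78.7 to 570 in Ctx_Sal, from 71.0 to 595 in Shell Ext_Coc and from 79.0 to 94.3 in Ext_Sal, and from 56.5 to 262 in Shell HC_Coc and from 77.1 to 200 in HC_Sal. In Core it ran from 64.8 to 164 CPM in Ctx_Coc and 73.3 to 303 in Ctx_Sal, from 42.2 to 221 in Ext_Coc and 44.1 to 90.1 in Ext_Sal, and from 52.4 to 130.0 in HC_Coc and 66.7 to 116 in HC_Sal. Group medians of this sum went the other way in Ext, at 84.8 CPM in Shell Ext_Coc against 85.9 in Ext_Sal. In Core they were 75.3 in Ext_Coc against 78.6 in Ext_Sal. The group medians of the other 4 comparisons had the members' sign, with Core HC nearly equal (78.8 against 78.1). No marker was at 0 in any library, although Neurod6 had as few as 1 count. With this level as a covariate, likewise added once the data were known, the members' median was -0.16 in Shell Ctx, 0.16 in Shell Ext and 0.12 in Shell HC. In Core, fitted without 17-F, it was -0.16 in Ctx, 0.17 in Ext and 0.15 in HC. Beyond this fit, their part in the members' values was not tested.

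The conditions themselves were compared over both drug groups (14 libraries against 14), which sets extinction beside the other conditions. No member passed edgeR's test in any of the 6 comparisons, and DESeq2 called none. All genes gave 0% called in 5 of them and 0.00324% in Shell Ext against HC, a single gene. In that comparison 34 of 40 members were negative with a median of -0.20 (all genes 0.05), and 10 had an unadjusted p under 0.05, beside 23.9% of all genes. Projection neuron markers were negative for 9 of 9 there (median -0.37, 6 at an unadjusted p under 0.05) and astrocyte markers for 5 of 5 (median -0.19, 2 at that level), with 0 of either called by edgeR or DESeq2. Medians were also negative for oligodendrocyte (-0.12), microglia (-0.06), interneuron (-0.10) and cortical (-0.18) markers, and positive for vessel markers (0.10). The part of these cell types in the members' values was not tested. With the background as a covariate the median of the members was 0.00. Sv2c, an SV2 protein prominent in the striatum, had the smallest p, at 6.82, 7.35 and 7.81 log2 CPM in Ext against 7.25, 7.47 and 8.03 in HC (-0.22 ± 0.08, adjusted p = 0.208, edgeR), and Rims2 followed with -0.21 ± 0.08. Shell Ctx against HC, which shares the HC libraries, was led by Sv2c (-0.22 ± 0.08) and Rims2 (-0.14 ± 0.08), with an adjusted p of 0.716 for both. Shell Ext against Ctx had a median of -0.09, led by Syt13 (-0.19 ± 0.11) and Amph (0.12 ± 0.07). The members with an unadjusted p under 0.05 numbered 1 in Shell Ctx against HC and 0 in Shell Ext against Ctx, beside 4.3% and 1.65% of all genes.

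In Core the condition medians were 0.06 for Ext against HC, -0.02 for Ctx against HC and 0.11 for Ext against Ctx, which was 0.01 without 17-F. Unc13b (-0.11 ± 0.10) and Syn3 (-0.09 ± 0.09) had the smallest p in Ext against HC, Rims3 (0.13 ± 0.08) and Synpr (-0.16 ± 0.11), a synaptophysin relative, in Ctx against HC, and Unc13b (-0.16 ± 0.10) and Synpr (0.16 ± 0.11) in Ext against Ctx. The number with an unadjusted p under 0.05 was 0 in each, beside 0.36%, 0.408% and 0.851% of all genes.

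Whether the drug effect differed between conditions or subregions was tested as an interaction. For Ctx against HC the drug effects differed by a median of -0.56 over the members in Core and -0.38 in Shell, with 0 of 40 called by edgeR or DESeq2 (4 and 8 at an unadjusted p under 0.05, beside 11.8% and 7.9% of all genes). Without 17-F the Core median was -0.37, with 3 members at that level beside 2.42% of all genes. Stx1a had -0.71 ± 0.23 in Core (adjusted p = 0.351) and Amph -0.38 ± 0.13 in Shell (adjusted p = 0.505). With the background as a covariate these medians were 0.03 and 0.01. For Ext against HC they were 0.00 in Core and 0.09 in Shell, with 0 members at an unadjusted p under 0.05. The average drug effect differed between Shell and Core by a median of 0.04, with 0 members called by edgeR or DESeq2 and 1, Syt2 (0.27 ± 0.11), at an unadjusted p under 0.05, beside 0.958% of all genes. With the numbered pairs as a block, a fit added once the data were known, the median was 0.15 with 0 members called and 0 at that level.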

How the data were processed

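Total RNA of the nucleus accumbens was extracted and made into stranded total RNA libraries, per the labels' protocols. The authors deposited raw whole-number counts per gene, and the submitters' processing notes name featureCounts and the build mRatBN7.2. Which aligner, annotation release and strand setting were used is not given in the sources used here. The authors also deposited FPKM values, used here only for the gene lengths they imply: within 1%, 41717 of 41717 genes checked had 1 length in every library. No column was left unused (0).

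Each library was grouped by its title. The filter filterByExpr left 31370 genes in Core, 30911 in Shell and 32145 over both. After TMM scaling, edgeR's quasi-likelihood F test (edgeR 4.0.16, limma 3.58.1, R 4.3.3) was used, two-sided. P-values were adjusted by Benjamini-Hochberg over all genes, with a threshold of 0.05. Fits within a subregion held its 42 libraries with the series as a covariate. Shell against Core held all 84, with the F series against the numbered ones as a covariate. In total 20 comparisons were made. Levels are log2 CPM with a prior count of 2. The background is the summed level of 2033 olfactory and vomeronasal receptor genes, 2027 of them with a length. Alternatives were DESeq2 1.42.0 (its Wald test, and its size factors in edgeR), leaving out the filter or the series covariate, fitting the compared groups alone, the numbered or the F series alone, the background as a covariate, leaving out 17-F, a replicate block, and combinations. Covariates for oligodendrocyte and cortical markers were added once the data were known. Scripts were tested on simulated data.

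The titles pair Core with Shell libraries by number (1-k with 3-k, 2-k with 4-k). With background and marker levels removed, over 200 genes the 30 pairs had correlations of deviations from group and series means of 0.178 to 0.719 (median 0.536; other pairings -0.02), and 30 of 30 were above 0.1.

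The members, roles, pathway and marker lists, and the rule for naming, were chosen with earlier results of these data known. Some listed genes are not reported here and stay out of the lists' values. Named with values were members past the threshold in Shell against Core with or without 17-F, or the 8 of lowest p. The rule added the 2 members of lowest p in each drug and condition comparison, and the highest and lowest per length in each role. Members named beyond this rule, such as paralogs set side by side, were chosen after their values were seen.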

Additional observations from a re-analysis of the deposited data

Results flagged for a closer look

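In 96 sets of 7 libraries (8 members in 12 groups), 13 had a highest or lowest library whose gap to the next was large against the group's range (Dixon's test, critical value 0.568). Chance flags about 5% of such sets. The Core Ctx_Coc library 17-F was the lowest in 3 of the 13: Rims3 at 4.06 log2 CPM, Unc13a at 4.31 and Cplx2 at 5.09. The Shell HC_Coc library 6-F was far above its group in Bin1 (7.69), Dnm3 (8.35) and Cplx2 (8.72) and far below it in Unc13b (5.14). The Core HC_Sal library 15-F was lowest in Unc13b (5.37) and Syn3 (8.51). Single flags fell on Syt10 in Shell Ext_Coc 3-2 (5.27), Dnm3 in Shell Ctx_Sal 24-F (8.35), Unc13b in Core Ctx_Sal 1-18 (5.24) and Syn3 in Shell HC_Coc 4-7 (9.13). The estimated background was the lowest of its group in 6-F (2.13%), 15-F (5.26%), 24-F (5.22%) and 1-18 (2.66%). It was the highest of its group in 17-F (96.1%) and 4-7 (28.7%), and at neither end in 3-2 (16.3%). The 8 members share libraries, so the flags are not independent, and the part of the background in them was not tested.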

How the results depend on the processing

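In the 19 comparisons other than Shell against Core, 0 members passed in edgeR and 0 in each of 169 alternative values. Of 360 alternative values of the 36 named results, 323 kept direction and call, 15 lost the call, 5 gained it and 17 reversed, all in Shell against Core. The number of members called there was 5 in the report. It was 12 without 17-F, 8 with the replicate block, 32 with the background covariate, 30 with that covariate and without 17-F, 29 with block and background, 38 with the oligodendrocyte covariate (with or without 17-F), 0 in the F series alone and 1 there without 17-F. All genes called numbered 4283, and in the same settings 8454 without 17-F, 13284 with the background, 14134 with the background and without 17-F, 12525 with block and background, 28759 and 29296 with the oligodendrocyte covariate, 76 in the F series and 714 there without 17-F. Elsewhere the counts of all genes moved for DESeq2, with 2 in Core Ctx, 1 in Core Ext, 1 in Shell Ctx, 4 in Shell Ctx against HC, 6 in Shell Ext against HC and 1 in the drug effect of Shell minus Core. The background covariate gave 1 in Core Ctx, and 0 in Shell Ext against HC in place of 1, as did the numbered series and only the groups compared.

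Reversed values under the oligodendrocyte covariate, with all libraries and without 17-F, were 0.56 and 0.62 for Bin1, 0.27 and 0.43 for Dnm3, 0.80 and 0.81 for Unc13a, -0.26 and -0.31 for Unc13b, -0.17 and -0.20 for Syn3, 0.99 and 0.94 for Cplx2, and 0.12 without 17-F for Syt10. With the background covariate Unc13a had 0.020 and Cplx2 0.11, and Cplx2 had 0.031 with the block in addition and 0.063 without 17-F in addition. The cause was not tested. The replicate block was fitted for the 2 comparisons across subregions, since the numbers pair no libraries within one. For the drug effect of Shell minus Core, added after the data were seen, it gave 0 members and 0 genes. Exon length in place of implied gene length was not run. Every member had 62 or more counts in every library, background included, and the estimated background was over 50% of the counts of Unc13b and Syn3. Subregion and series can be told apart in the F series alone.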
